A study of Mus musculus with 6 samples.

Results

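Dividing cells are marked in RNA by a set of genes that are switched on for DNA replication and for mitosis, and 42 such genes were followed in the sciatic nerve, in control mice and in Dok6 mutants, at postnatal day 3 (P3). The genes were taken by symbol from a written list of 19 replication genes, which act at the G1/S transition and in S phase, and 23 mitosis genes, which act in G2 and M phase. All 42 were found among the 54532 genes of the count table, and all 42 passed the filter on low counts, as did 17099 genes in all. RNA was sequenced from 3 control mice, genotyped WT, and from 3 Dok6 mutant mice, with 1 library per mouse. The mutants are Dok6-/- mice on a C57BL/6 background, made by crossing Dok6 fl/fl mice, which carry loxP sites around exon 3, with EIIA-cre mice, whose Cre acts in the early embryo, so that the deletion is carried by all cells and not by Schwann cells or neurons alone. Animals were not separated by sex. P3 was chosen by the study as a time of active radial sorting, when Schwann cells separate axons before wrapping them. The paper gives the aim of the comparison as finding possible downstream pathways. The submitters' description of the data gives it as seeing whether myelination genes differ in the mutant.

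A cell enters the cycle when cyclin D and its kinases CDK4 and CDK6 release the E2F factors from the RB proteins, which lets cyclin E and CDK2 start S phase. Origins of replication are licensed when ORC, CDC6 and CDT1 load the MCM2-7 helicase, and mitosis is then driven by CDK1 with the B cyclins and policed by the spindle checkpoint. In peripheral nerve, immature Schwann cells divide around birth, and they leave the cycle when they begin to form myelin.

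The libraries held 17699904 to 18678170 counts, so that 3 counts, taken as the smallest detectable level, corresponded to 0.156 to 0.172 CPM, the count of a gene per M counts of its library. The genotype labels were checked on Dok6 itself, which read 17.8, 11.9 and 17.5 CPM in the controls and 7.26, 5.78 and 7.15 CPM in the mutants. All 3 mutants were below all 3 controls (log2 fold change -1.23, SE 0.20, adjusted p = 0.0118 in edgeR's quasi-likelihood test), and the remaining counts can come from exons outside the deletion, since the table counts whole genes. The tissue label was checked on marker genes. The 13 Schwann cell markers summed to 305, 203 and 863 CPM in the controls and 730, 2650 and 503 CPM in the mutants, whereas 10 markers of central neurons summed to 1320 to 1510 CPM in the controls and 1100 to 1260 CPM in the mutants. Markers of astrocytes and radial glia, cells of the brain and spinal cord, summed to 2170 to 2770 CPM and 2070 to 3520 CPM. High central markers go against the label of a peripheral nerve, and the libraries are called here by their labels. Several marker lists differed between the genotypes, where 8.62% of all genes were higher and 6.01% lower. The higher ones were those of Schwann cells (7 of 13 genes, at the levels just given), nerve fibroblasts (5 of 9, 335 to 1200 CPM in controls and 2070 to 3220 CPM in mutants), endothelial cells (3 of 7, 177 to 279 and 306 to 419 CPM), sensory neurons (8 of 10, 186 to 242 and 384 to 1000 CPM) and skeletal muscle (7 of 7 tested, 12.6 to 21.5 and 110 to 602 CPM). Erythroid markers were lower (4 of 6 tested, 431 to 750 and 75.6 to 291 CPM), as were 2 of 10 central neuron markers. Of 10 markers of macrophages and microglia 1 was higher, as was 1 of 8 astrocyte markers, and none of 7 oligodendrocyte markers tested passed by edgeR, with 1 at an unadjusted p under 0.05. Only Tnnc2, of the muscle list, was at 0 in all 6 libraries, and the oligodendrocyte gene Opalin had a single count in 1 library. The part of these marker differences in the results below was not tested, and in whole tissue a change in the number of dividing cells and a change in RNA per cell cannot be told apart.

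To show what the replication and mitosis genes share beyond their use in the cycle, the promoters that RefSeq lists for them on GRCm38.p6 were searched on both strands, in windows from 250 bases before to 50 bases after each start, for 3 elements. These were the CCAAT box, the CHR element (TTTGAA), which is known from promoters of mitotic genes, and E2F sites in the forms TTTCCCGC and TTTGGCGC. Of the 42 genes, 35 had an entry, with 37 windows, and Ccne2, Mcm4, Gins2, Ccna2, Cdc25c, Aurkb and Tpx2 had none. The upstream 150 bases of 6 named genes follow, all stretches before the RefSeq start that cross no exon in GENCODE M21 (for Cdc6, whose GENCODE gene starts farther upstream, the stretch lies in an intron), with matches to any of these motifs in capitals, read 5′ to 3′ on the strand of the gene. Top2a (chr11:99024190-99024339, minus strand), Mki67 (chr7:135716380-135716529, minus strand) and Ccnb2 (chr9:70421555-70421704, minus strand) are mitosis genes. Cdc6 (chr11:98908001-98908150, plus strand), Pola1 (chrX:93632156-93632305, minus strand) and Mcm6 (chr1:128359706-128359855, minus strand) are replication genes.
Top2a: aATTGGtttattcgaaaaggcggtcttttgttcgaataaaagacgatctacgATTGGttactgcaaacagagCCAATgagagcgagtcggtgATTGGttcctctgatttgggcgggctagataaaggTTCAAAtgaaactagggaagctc
Mki67: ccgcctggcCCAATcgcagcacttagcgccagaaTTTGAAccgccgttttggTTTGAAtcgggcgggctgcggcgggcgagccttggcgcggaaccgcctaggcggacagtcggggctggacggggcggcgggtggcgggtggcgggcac
Ccnb2: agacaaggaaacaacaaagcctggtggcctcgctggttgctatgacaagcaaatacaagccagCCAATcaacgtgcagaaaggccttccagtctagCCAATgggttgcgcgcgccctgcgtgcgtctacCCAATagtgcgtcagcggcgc
Cdc6: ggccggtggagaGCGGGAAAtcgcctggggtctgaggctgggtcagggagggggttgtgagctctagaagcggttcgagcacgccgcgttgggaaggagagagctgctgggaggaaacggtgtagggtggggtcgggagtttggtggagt
Pola1: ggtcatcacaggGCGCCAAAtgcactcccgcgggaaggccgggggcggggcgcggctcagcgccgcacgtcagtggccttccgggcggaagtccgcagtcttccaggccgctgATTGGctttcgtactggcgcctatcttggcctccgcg
Mcm6: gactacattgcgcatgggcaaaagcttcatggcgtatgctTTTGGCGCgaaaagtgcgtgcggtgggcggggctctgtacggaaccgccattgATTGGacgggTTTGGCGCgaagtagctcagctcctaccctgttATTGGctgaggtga

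CCAAT boxes (ATTGG when read on the other strand) were common in both groups, CHR elements were found mostly in mitosis promoters, and E2F sites in some of the replication promoters. In the stretches shown, Top2a has CCAAT boxes on both strands and a CHR element (TTCAAA as printed) near its start, Mki67 has a pair of CHR elements, and Ccnb2 has a row of CCAAT boxes, while its CHR elements lie outside the stretch. Cdc6 and Pola1 each hold an E2F site in reverse (GCGGGAAA and GCGCCAAA), and Mcm6 holds a pair of E2F sites in forward direction. Over all windows, a CHR element was found for 14 of 19 mitosis genes and for 1 of 16 replication genes, Mcm2, against 17.9% of the 32851 mouse promoter windows. A CCAAT box was found for 17 of 19 mitosis genes and 11 of 16 replication genes, against 37.4% of windows. An E2F site of either form was found for 8 of 16 replication genes (Cdc6, Cdk2, Cdt1, Mcm3, Mcm5, Mcm6, Mcm7 and Pola1) and for 0 of 19 mitosis genes, against 1.56% of windows. In the windows of these genes, 1 match shared bases with a match to another of the motifs. A match is a description of the letters and not a site of binding, and the plot of motif shares gives the same counts per window.

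**Figure D1:**
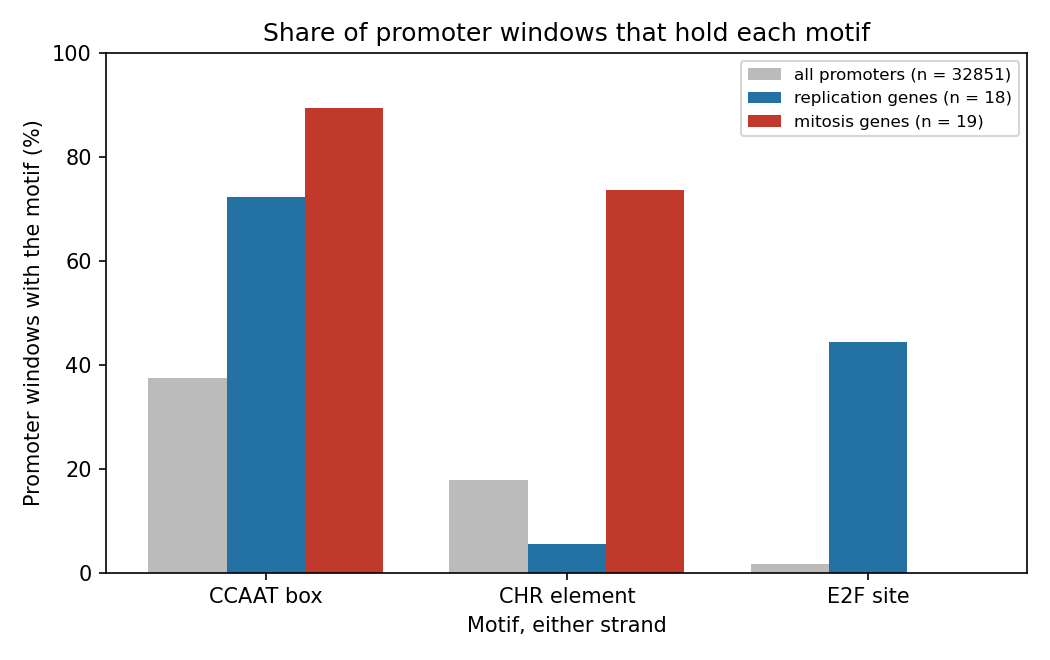
Bars give the percentage of 300-base promoter windows that hold a CCAAT box, a CHR element or either E2F site on either strand, for all 32851 RefSeq windows (grey), the 18 windows of replication genes (blue) and the 19 windows of mitosis genes (red). CHR elements stand in 73.7% of mitosis windows and 5.56% of replication windows, and E2F sites in 44.4% of replication windows and in none of the mitosis windows.

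Cell cycle genes read mostly higher in the Dok6 mutant nerves. Of the 42 genes, 38 had a positive log2 fold change, with a median of 0.55 (1.47-fold), against a median of 0.01 over all genes tested. By edgeR's quasi-likelihood test, with adjustment over all genes tested, 9 genes were higher in the mutants (Cdk2, Cdc6, Pola1, Tyms, Uhrf1, Top2a, Ccnb2, Bub1b and Birc5), 1 was lower (Cdt1) and 32 did not pass. Across the genome 8.62% of genes were higher and 6.01% lower, so the 21.4% of cell cycle genes that were higher is above the background. All 3 mutants were above all 3 controls for 28 of the 42 genes (66.7%, against 19.6% of all genes), all 3 were below for 2 (18.7% of all genes), and the genotypes overlapped for 12.

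The changes were small. With a log2 fold change above 1 also asked for, 4 genes remained higher (Cdc6, Pola1, Uhrf1 and Top2a), against 3.58% of all genes, and past an absolute log2 fold change of 2, the limit the study used, 0 of 42 remained by edgeR, against 1.19% of all genes. At an unadjusted p under 0.05 there were 29 of the 42, against 33.6% of all genes. Of these 29, 18 had an adjusted p between 0.05 and 0.1, with 17 of the 18 log2 fold changes above 0, and such adjusted values were held by 11.2% of all genes. DESeq2 called 20 genes higher and 2 lower, against 10.6% and 8.95% of all genes. The number of calls depended on which mouse was left out, as 16 genes were higher without control mouse 3, 9 without mutant mouse 3, 2 without control mouse 1, 1 without mutant mouse 1 and 0 without control mouse 2 or mutant mouse 2, and the gene that was lower did not pass when any 1 mouse was left out. In these fits the share of all genes called higher was 5.72%, 9.59%, 5.56% and 3.99% in the same order, and 0.318% and 3.16% without control mouse 2 and mutant mouse 2. The fold changes of the 10 called genes kept their direction in these fits, and the cause of the change in the number of calls was not tested.

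**Figure D2:**
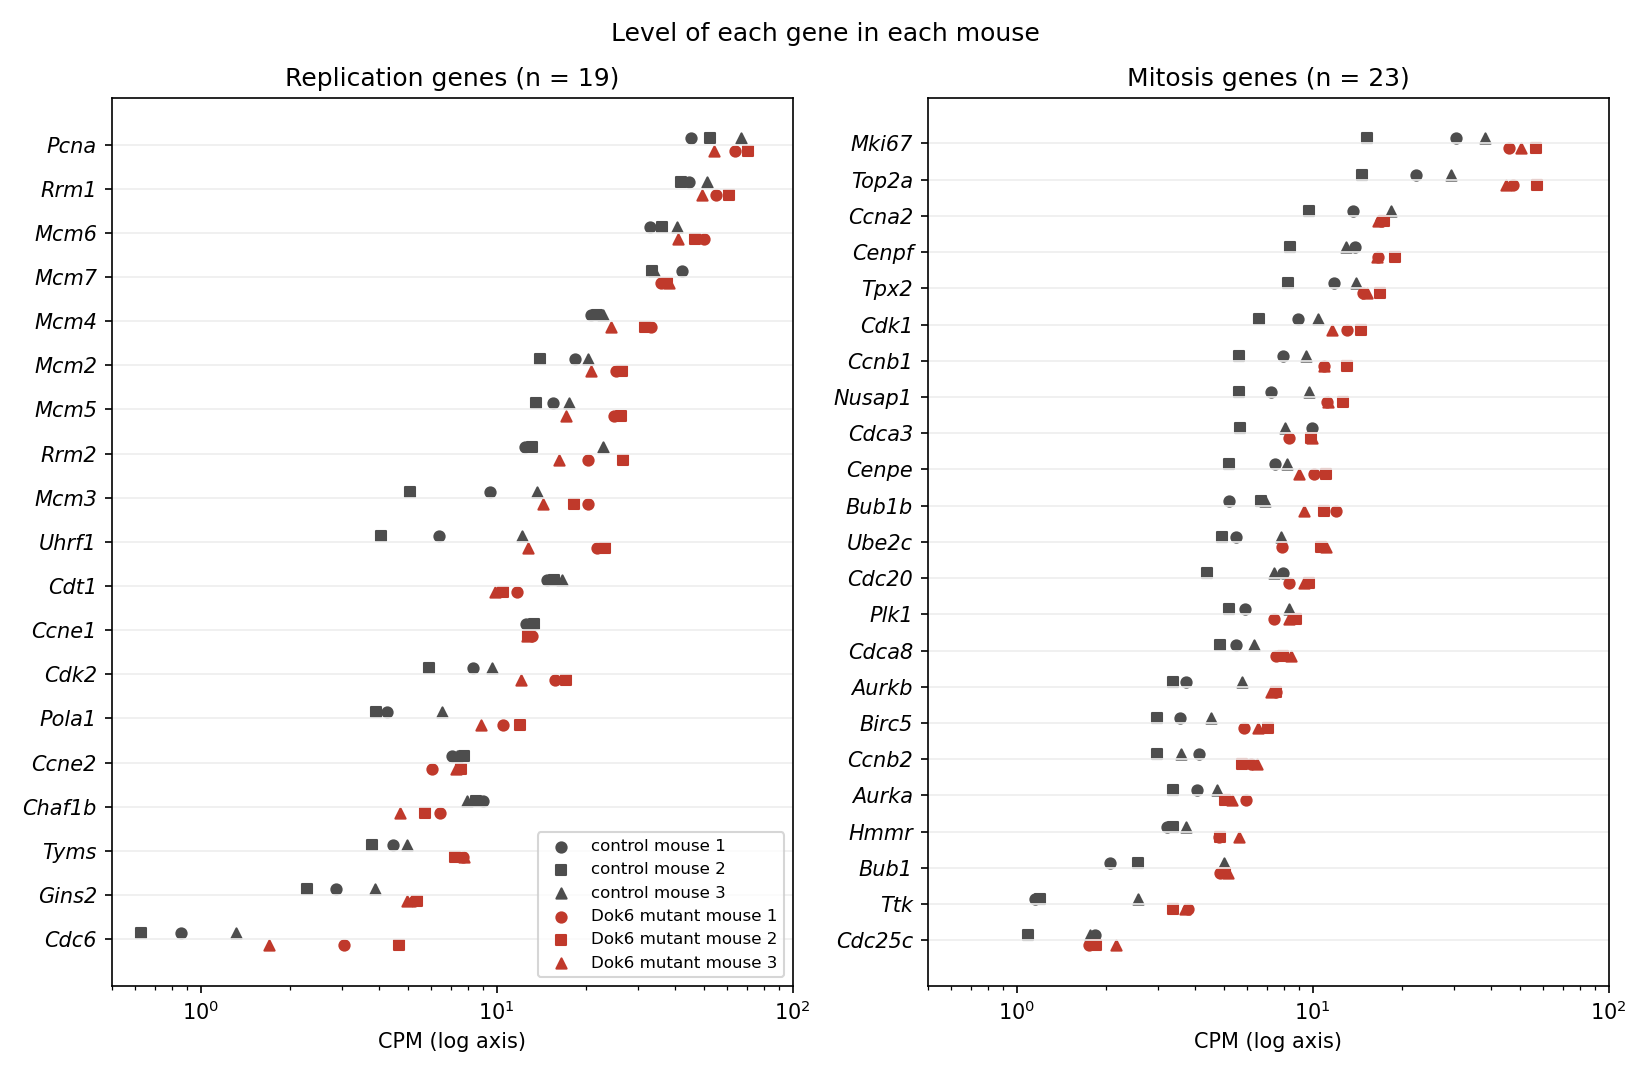
Each row is a gene and each point a mouse, with the level in CPM on a log axis for controls (grey) and Dok6 mutants (red), replication genes on the left and mitosis genes on the right, ordered by mean level. The red points lie to the right of the grey points for 28 genes, to the left for Cdt1 and Chaf1b, and among them for the other 12.

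The genes that start S phase did not move together. Cdk2, the kinase that cyclin E activates, read 8.32, 5.90 and 9.66 CPM in the controls and 15.8, 17.1 and 12.1 CPM in the mutants, and it was 1.88-fold higher (log2 fold change 0.91, SE 0.21, adjusted p = 0.0282 by edgeR). Its cyclin partners gave no such difference. Ccne1 read 13.0 ± 0.398 CPM in the controls and 12.9 ± 0.291 CPM in the mutants (SD, n = 3, log2 fold change -0.01, SE 0.12), and Ccne2 read 7.37 ± 0.344 and 6.99 ± 0.807 CPM (log2 fold change -0.08, SE 0.16).

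The 2 factors that load the helicase onto origins moved in opposite directions. Cdc6 read 0.861, 0.631 and 1.32 CPM in the controls and 3.06, 4.69 and 1.70 CPM in the mutants, with every mutant above every control. It had the largest fold change of the 42 genes, 3.35-fold (log2 fold change 1.74, SE 0.44, adjusted p = 0.0351 by edgeR), and also the lowest level among the replication genes. Limma voom did not call Cdc6. Cdt1 read 14.8, 15.6 and 16.6 CPM in the controls and 11.7, 10.5 and 9.86 CPM in the mutants, with every mutant below every control. It fell by 0.55 on the log2 scale (SE 0.13, adjusted p = 0.0309 by edgeR), the only one of the 42 genes that edgeR called lower. Chaf1b, a subunit of the CAF-1 complex that places histones on new DNA, also read lower in every mutant (8.50 ± 0.531 against 5.63 ± 0.862 CPM, SD, n = 3), with a log2 fold change of -0.59, SE 0.17, and an adjusted p = 0.0529 by edgeR that missed the threshold, while DESeq2 called both genes lower.

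None of the 6 genes of the MCM2-7 helicase passed the test by edgeR, although 5 of them had positive fold changes of 0.33 or more on the log2 scale. Mcm6 read 32.9, 36.1 and 40.8 CPM in the controls and 50.2, 46.8 and 40.9 CPM in the mutants, so that mutant mouse 3 stood level with control mouse 3 (log2 fold change 0.33, SE 0.12, adjusted p = 0.0895). Mcm2 read 18.4, 14.0 and 20.4 CPM against 25.2, 26.6 and 20.9 CPM (log2 fold change 0.46, SE 0.16, adjusted p = 0.0881). Again mutant mouse 3 was close to the highest control. Mcm7 gave 42.3, 33.4 and 33.9 CPM against 35.9, 37.7 and 38.3 CPM, with overlap of the genotypes (log2 fold change 0.03, SE 0.11), and its sign turned when control mouse 2 or 3 was left out (-0.03 and -0.02). Mcm3, Mcm4 and Mcm5 had log2 fold changes of 0.90, 0.44 and 0.55 with adjusted p-values of 0.0829, 0.0584 and 0.0761, and DESeq2 called these 3 higher. Gins2, which joins the helicase at the fork, had a log2 fold change of 0.79 (adjusted p = 0.0559), but 67.3% of its exonic bases are overlapped by Gse1 on the other strand, and the use of strand in counting is not given in the sources used here.

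Among the genes that make and copy DNA, Pola1 and Tyms were higher. Pola1, the catalytic subunit of DNA polymerase alpha, which lays down the primers, read 4.25, 3.90 and 6.52 CPM in the controls and 10.5, 12 and 8.85 CPM in the mutants. The genotypes were apart by 2.14-fold (log2 fold change 1.10, SE 0.23, adjusted p = 0.0218 by edgeR). Tyms, the enzyme that makes thymidylate, read 4.48, 3.78 and 4.98 CPM against 7.68, 7.25 and 7.74 CPM, a tight group in the mutants (log2 fold change 0.78, SE 0.17, adjusted p = 0.0254 by edgeR). The more abundant genes of this group overlapped between the genotypes. Pcna, the sliding clamp of the polymerases and the highest of the 42 genes in CPM, read 45.5, 52.6 and 66.9 CPM in the controls and 63.6, 70.4 and 54.4 CPM in the mutants (log2 fold change 0.19, SE 0.15, adjusted p = 0.413). Rrm1 and Rrm2, the subunits of ribonucleotide reductase, had log2 fold changes of 0.25 (SE 0.11) and 0.38 (SE 0.26), and Rrm1 read 44.8, 42.1 and 51.5 CPM against 55.2, 60.7 and 49.3 CPM. Uhrf1, which finds hemimethylated DNA behind the fork and recruits the methyltransferase DNMT1, read 6.37, 4.07 and 12.2 CPM in the controls and 21.9, 23.3 and 12.8 CPM in the mutants. It was 2.56-fold higher (log2 fold change 1.36, SE 0.38, adjusted p = 0.0474 by edgeR), with control mouse 3 and mutant mouse 3 nearly level. For all 10 genes called, mitosis genes included, the adjusted p without control mouse 2 was above the threshold, from 0.0598 for Top2a to 0.142 for Uhrf1, in a fit that called 0.318% of all genes higher. Their log2 fold changes in that fit kept their direction, such as 0.95 for Top2a, 1.05 for Uhrf1, 0.82 for Bub1b and -0.56 for Cdt1.

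**Figure D3:**
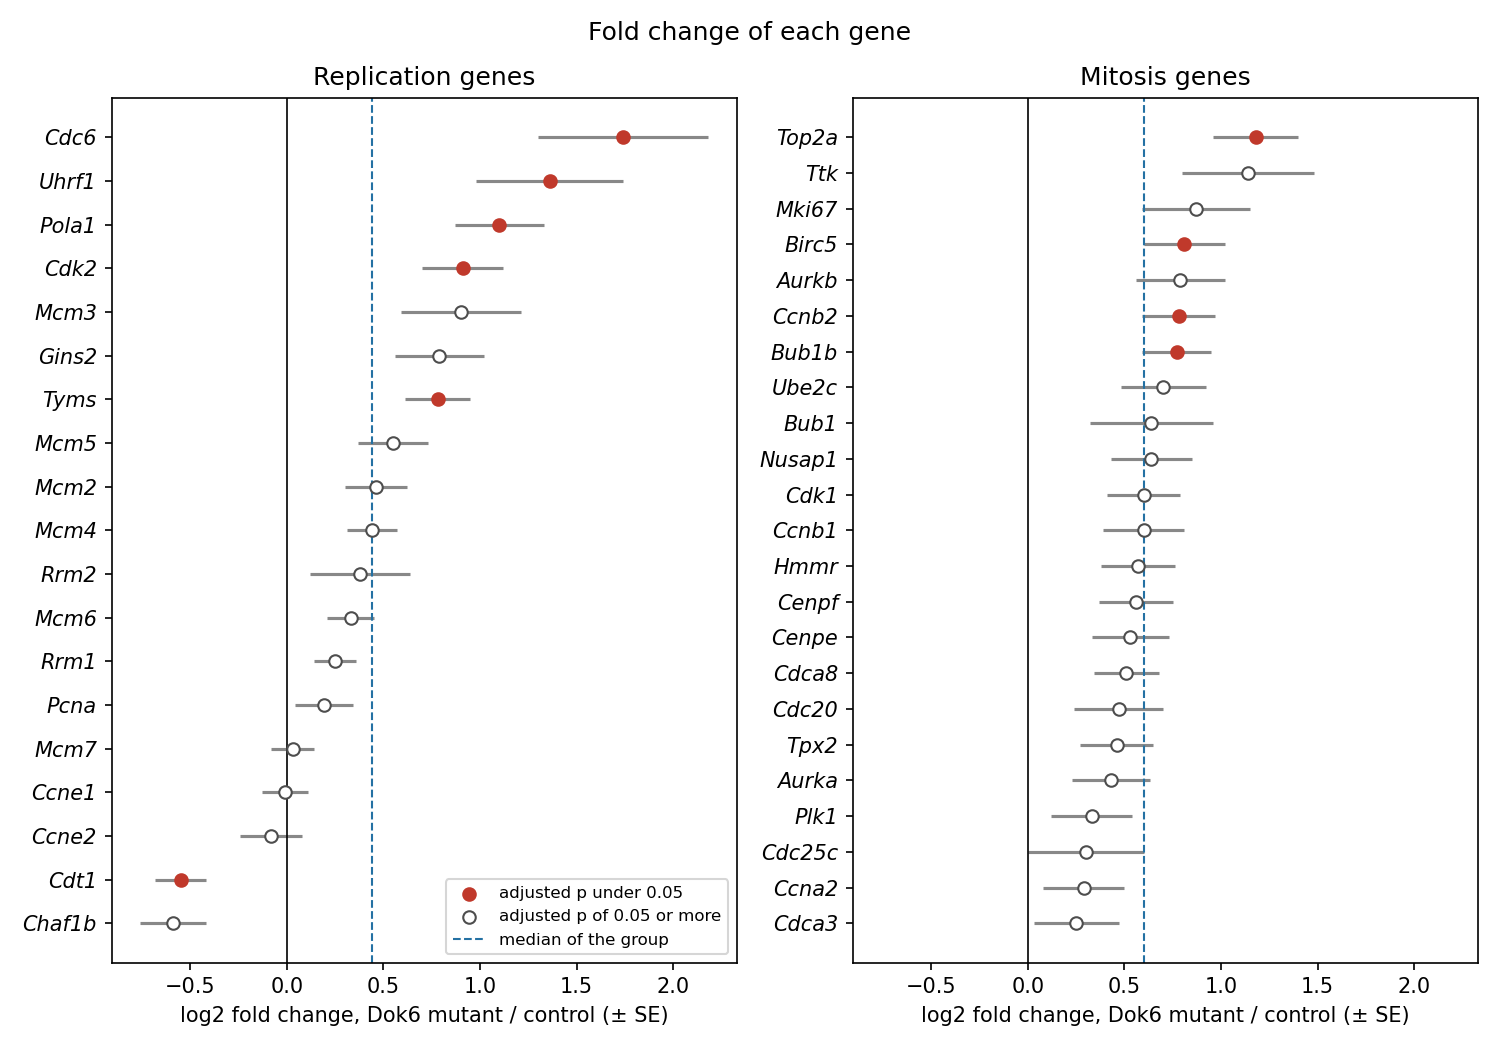
Points give the log2 fold change of each gene, Dok6 mutant over control, with its SE as a bar, and filled points passed an adjusted p of 0.05. The dashed lines mark the medians, 0.44 for the replication genes, which reach from -0.59 to 1.74, and 0.60 for the mitosis genes, which reach from 0.25 to 1.18 with none below 0.

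The mitosis genes all leaned one way. All 23 had positive log2 fold changes, from 0.25 (Cdca3) to 1.18 (Top2a), 18 of them with every mutant above every control (19.6% of all genes), and 4 passed by edgeR (17.4%, against 8.62% of all genes) while 19 did not. None was lower by edgeR, DESeq2 or limma voom, and none had an unadjusted p under 0.05 in that direction. DESeq2 called 11 of the 23 higher (10.6% of all genes) and limma voom 6 (7.86% of all genes), whereas the edgeR test called 9 without control mouse 3 (5.72% of all genes), 2 without control mouse 1 or mutant mouse 3, 1 without mutant mouse 1 and 0 without control mouse 2 or mutant mouse 2.

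Top2a, the topoisomerase that untangles sister chromosomes, read 22.4, 14.7 and 29.3 CPM in the controls and 47.6, 57.2 and 45.0 CPM in the mutants. The lowest mutant was well above the highest control, and the 2.26-fold difference gave the smallest adjusted p of the 42 genes (log2 fold change 1.18, SE 0.22, adjusted p = 0.0170 by edgeR). Mki67, which encodes the Ki-67 antigen used to stain dividing cells, read 30.6, 15.2 and 38.2 CPM against 46.0, 56.7 and 50.7 CPM. Every mutant was above every control, yet control mouse 2 was at 15.2 CPM, far under the other controls, and the gene missed the threshold (log2 fold change 0.87, SE 0.28, adjusted p = 0.0665 by edgeR). DESeq2 called it.

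Of the genes for the kinase that drives mitosis and its cyclins, only Ccnb2 passed by edgeR, and the log2 fold changes ran from 0.29 to 0.78. Cdk1 read 8.95, 6.59 and 10.4 CPM in the controls and 13.1, 14.6 and 11.6 CPM in the mutants (log2 fold change 0.60, SE 0.19, adjusted p = 0.0677). Ccnb1, cyclin B1, read 7.92, 5.62 and 9.49 CPM against 10.9, 13.1 and 10.9 CPM (log2 fold change 0.60, SE 0.21, adjusted p = 0.0834). Ccnb2, cyclin B2, read 4.13, 2.98 and 3.60 CPM against 6.17, 5.78 and 6.46 CPM and passed (log2 fold change 0.78, SE 0.19, adjusted p = 0.0336 by edgeR). Ccna2, cyclin A2, which acts in S phase as well, read 13.7, 9.69 and 18.4 CPM against 17.0, 17.4 and 16.6 CPM, so that control mouse 3 was above all mutants (log2 fold change 0.29, SE 0.21). Cdc25c, the phosphatase that activates CDK1, was the lowest of the mitosis genes, at 1.84, 1.09 and 1.77 CPM against 1.76, 1.85 and 2.17 CPM (log2 fold change 0.30, SE 0.30).

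Among the genes of the spindle checkpoint and the chromosomal passenger complex, Bub1b and Birc5 were higher. Bub1b, which encodes the checkpoint protein BUBR1, read 5.22, 6.71 and 6.92 CPM in the controls and 12, 10.9 and 9.33 CPM in the mutants (log2 fold change 0.77, SE 0.18, adjusted p = 0.0267 by edgeR). Birc5, survivin, read 3.56, 2.98 and 4.52 CPM against 5.86, 7.04 and 6.52 CPM (log2 fold change 0.81, SE 0.21, adjusted p = 0.0373 by edgeR). Both had every mutant above every control. Survivin works in a complex with Aurora kinase B and borealin, and their genes Aurkb (log2 fold change 0.79, adjusted p = 0.05025) and Cdca8 (0.51, adjusted p = 0.0725) missed the threshold by edgeR. The checkpoint kinase genes Ttk and Bub1 had log2 fold changes of 1.14 (SE 0.34, adjusted p = 0.0540) and 0.64 (SE 0.32, adjusted p = 0.195). DESeq2 and limma voom called Aurkb and Ttk higher.

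The remaining mitosis genes serve the spindle, the kinetochore and the anaphase-promoting complex, and none of them passed by edgeR. Cenpf, a kinetochore protein, read 13.9, 8.37 and 13.0 CPM in the controls and 16.6, 18.9 and 16.5 CPM in the mutants (log2 fold change 0.56, SE 0.19, adjusted p = 0.0835). The other log2 fold changes were 0.70 for Ube2c, the ubiquitin-conjugating enzyme of the anaphase-promoting complex, 0.64 for Nusap1, 0.57 for Hmmr, 0.53 for the kinetochore motor Cenpe, 0.47 for Cdc20, 0.46 for Tpx2, 0.43 for Aurka and 0.33 for Plk1.

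Set against each other, the mitosis genes had the larger median, and the order of the shares of calls depended on the fit. By edgeR 5 of 19 replication genes (26.3%) and 4 of 23 mitosis genes (17.4%) were higher, by DESeq2 9 and 11, by limma voom 5 and 6, with no filter on low counts 7 and 9, and without control mouse 1 there were 0 and 2. The difference between the shares was not tested. The median log2 fold change was 0.60 for mitosis and 0.44 for replication, a difference of 0.16, which was 0.05 without mutant mouse 3. The mean log2 difference from the control mean, taken over all genes of a group in each mouse, was -0.04, -0.22 and 0.25 for replication in the controls and 0.54, 0.62 and 0.26 in the mutants. For mitosis it was 0.02, -0.34 and 0.32 in the controls and 0.58, 0.70 and 0.64 in the mutants. Mutant mice 1 and 2 were thus raised about alike in both groups, whereas mutant mouse 3 had the replication level of control mouse 3 and the mitosis level of the other mutants. The mitosis score less the replication score was 0.06, -0.12 and 0.07 in the controls and 0.04, 0.08 and 0.38 in the mutants, so the genotypes overlapped.

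Mutant mouse 3 was the lowest mutant for 16 of 19 replication genes (84.2%) and for 8 of 23 mitosis genes (34.8%), against 36.4% of all genes. It was also the lowest mutant for the summed markers of oligodendrocytes (503 CPM, against 900 and 1050 CPM), of astrocytes and radial glia (2070 CPM, against 3520 and 3410 CPM) and of Schwann cells (503 CPM, against 730 and 2650 CPM), as for those of fibroblasts, macrophages and muscle. It was the highest mutant for endothelial (419 CPM), erythroid (291 CPM) and central neuron (1260 CPM) markers, and the part of these lists in its replication level was not tested. Among the controls, mouse 3 was the highest for 33 of the 42 genes (78.6%, against 36.1% of all genes) and mouse 2 the lowest for 30 (71.4%, against 29.4% of all genes), of which 19 were mitosis genes. The summed markers of 3 glial lists had the same order in the controls, with mouse 3 the highest and mouse 2 the lowest. Control mice 1, 2 and 3 read 553, 449 and 751 CPM for oligodendrocytes, 2460, 2170 and 2770 CPM for astrocytes and radial glia, and 305, 203 and 863 CPM for Schwann cells. Control mouse 3 was the lowest control for fibroblast (335 CPM), endothelial (177 CPM), erythroid (431 CPM) and muscle (12.6 CPM) markers, and the part of these lists in the order of the controls was not tested. Summed over the genes, the replication set took 313, 298 and 374 CPM in the controls and 431, 451 and 358 CPM in the mutants, with overlap, and the mitosis set took 188, 132 and 227 CPM and 279, 317 and 286 CPM, without.

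**Figure D4:**
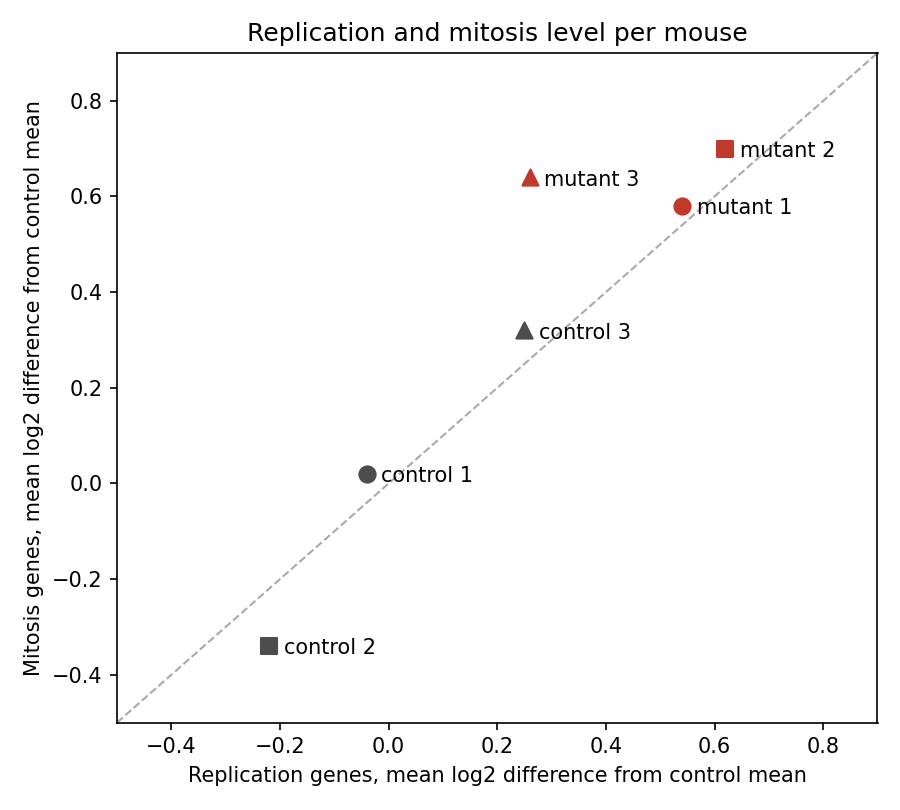
Each point is a mouse (grey controls, red Dok6 mutants), placed by the mean log2 difference from the control mean over the 19 replication genes (horizontal) and the 23 mitosis genes (vertical), and the dashed line marks equal values. Mutant mouse 3 lies at 0.26 and 0.64, above the line, beside control mouse 3 on the horizontal axis, at 0.25.

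Together the 42 genes took 0.0421% to 0.0584% of all counts in the controls and 0.0654% to 0.0775% in the mutants. Compared per kilobase of the deposited gene length, Pcna was the highest replication gene (22.9 CPM per kb in the controls and 26.2 in the mutants), followed in the controls by Mcm7 (8.26 and 8.43) and Mcm6 (7.84 and 9.85). None of the mitosis genes was above 5.54 CPM per kb in either genotype. Top2a reached 2.45 and 5.54 CPM per kb, Mki67 2.78 and 5.08, and Cdc20 3.52 and 4.88, while Ttk was at 0.334 and 0.737. At the bottom of the list Cdc6 was at 0.179 CPM per kb in the controls and 0.602 in the mutants.

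Upstream of the 42 genes, the genes of the D cyclins were higher in the mutants. Of the 5 genes for the D cyclins and their kinases, 4 were higher by edgeR (80%, against 8.62% of all genes), and in all 5 every mutant was above every control. Ccnd1, cyclin D1, read 15.5, 12.8 and 14.2 CPM in the controls and 40.8, 64.8 and 31.2 CPM in the mutants, 3.21-fold higher (log2 fold change 1.68, SE 0.25, adjusted p = 0.00958). Ccnd2 read 60.7, 40.2 and 51.5 CPM against 113, 102 and 80.9 CPM (log2 fold change 0.96, SE 0.17, adjusted p = 0.0142). Both were well apart between the genotypes, with mutant mouse 2 the highest for cyclin D1 and mutant mouse 1 for cyclin D2. Ccnd3 and Cdk4 had log2 fold changes of 0.80 (SE 0.15, adjusted p = 0.0152) and 0.54 (SE 0.11, adjusted p = 0.0199), and Cdk6 had 0.49 (SE 0.19, adjusted p = 0.105). Without control mouse 2 none of the 5 passed, and without mutant mouse 1 or 2 there were 3. Genes on the other strand overlap 23.4% of the exonic bases of Ccnd1, 19.7% of Cdk4, 7.86% of Ccnd2, 4.11% of Ccnd3 and 2.63% of Cdk6. Ccnd3 also matches Ccnd3-ps over 881 bases, and Cdk6 matches Gm16505 over 233 bases. The use of strand in counting is not given in the sources used here.

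Of 7 CDK inhibitor genes 6 were tested (Cdkn2a was not), and 0 passed by edgeR, with 0 at an unadjusted p under 0.05 and 0 by DESeq2 or limma voom. Over all genes 8.62% were higher, 6.01% lower and 33.6% at an unadjusted p under 0.05, and the difference between the inhibitors and the cyclins was not tested. Cdkn1a, which encodes p21, read 110, 113 and 74.5 CPM in the controls and 64.2, 82.3 and 110 CPM in the mutants (log2 fold change -0.21, SE 0.21). Cdkn1b, which encodes p27, read 53.9, 55.3 and 36.9 CPM against 50, 56.2 and 55.3 CPM (log2 fold change 0.14, SE 0.15, or -0.02 without control mouse 3). The genotypes overlapped for both, and for the other inhibitors too. Cdkn1c (p57), Cdkn2b (p15), Cdkn2c (p18) and Cdkn2d (p19) had log2 fold changes of 0.24, -0.21, 0.51 and -0.22.

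**Figure D5:**
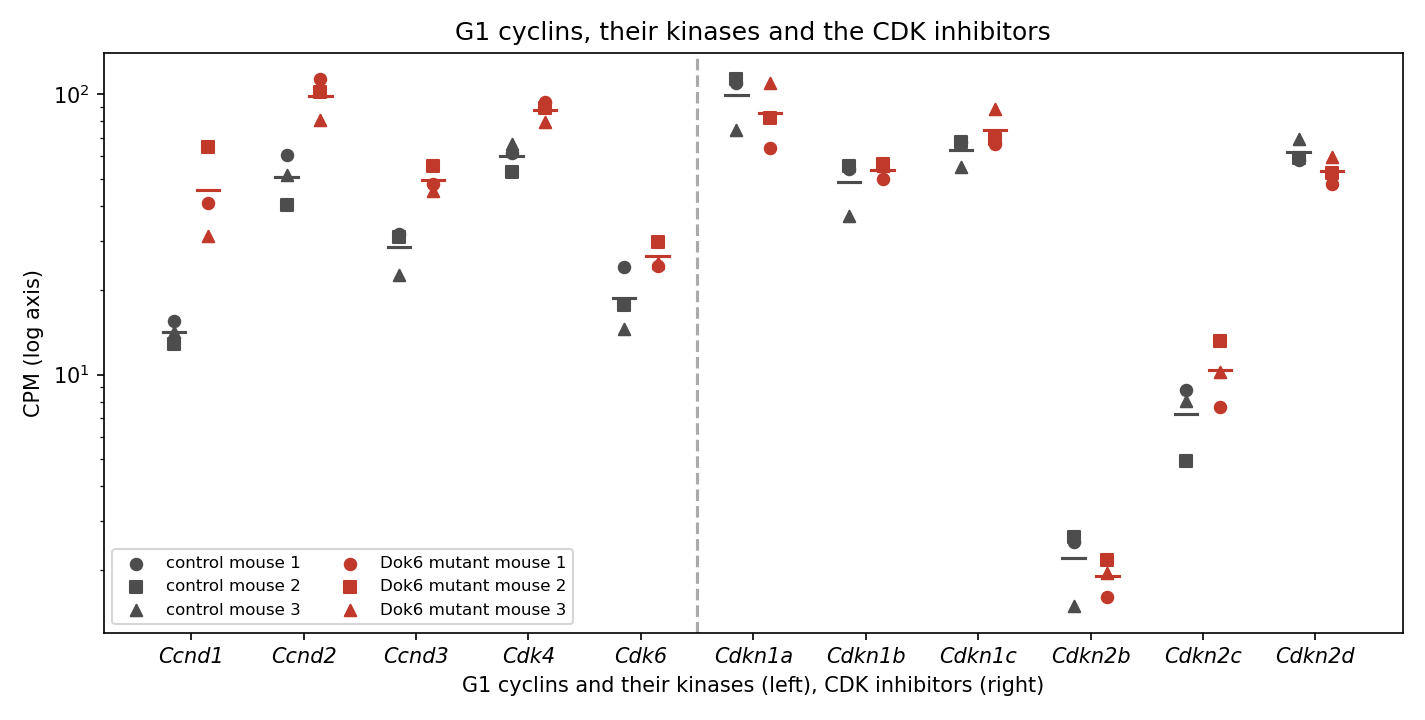
Levels in CPM (log axis) of the 5 genes for D cyclins and their kinases (left of the dashed line) and the 6 CDK inhibitor genes tested (right) in each control (grey) and Dok6 mutant mouse (red), with bars at the means of 3 mice. The red points lie above the grey points for the 5 genes on the left and mix with them for the 6 on the right.

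The RB and E2F proteins and their partners link the G1 cyclins to the replication and mitosis genes. Of 20 genes of the RB, E2F, DREAM and MYC families, 0 passed by edgeR, against 8.62% of all genes higher and 6.01% lower, with 7 at an unadjusted p under 0.05 (4 higher and 3 lower, against 33.6% of all genes), and DESeq2 called 1 higher and 1 lower. Of all genes DESeq2 called 10.6% higher and 8.95% lower. Without mutant mouse 3, edgeR called 3 of the 20 higher, in a fit that called 9.59% of all genes higher. The median log2 fold change of the 20 genes was 0.23.

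Replication genes outside the 42 were called in both directions, at shares near the background. Of 39 such genes, 4 were higher (10.3%, against 8.62% of all genes) and 4 lower (6.01% of all genes) by edgeR, with a median log2 fold change of 0.21. The higher ones were Cdc7, Pold1, Tk1 and Pola2. Cdc7, the kinase that fires licensed origins, read 14.2, 15.9 and 14.9 CPM in the controls and 26.5, 30.8 and 31.8 CPM in the mutants (log2 fold change 0.99, SE 0.12, adjusted p = 0.00665), and it passed under all 13 alternative settings, leaving out any 1 mouse included. Pold1, the catalytic subunit of DNA polymerase delta, Tk1, thymidine kinase, and Pola2, a partner of Pola1 in polymerase alpha, had log2 fold changes of 0.84, 0.98 and 0.64. The lower ones were Orc6, Rfc3, Slbp and Dut. Orc6, a subunit of the origin recognition complex, read 31.1, 36.1 and 32.6 CPM against 20.9, 21.9 and 21.9 CPM, a fall of every mutant below every control (log2 fold change -0.62, SE 0.10, adjusted p = 0.0121). Rfc3, of the clamp loader that places PCNA on DNA, Slbp, which binds histone mRNA, and Dut, which keeps uracil out of DNA, had log2 fold changes of -0.51, -0.39 and -0.36. Without control mouse 2, 1 of the 39 was higher and 0 lower, without control mouse 1 or mutant mouse 1 or 2 there was 1 higher with 1 to 2 lower, and without control mouse 3 or mutant mouse 3 there were 6 to 7 higher and 2 lower.

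Of 49 further mitosis genes, 5 were higher and 0 lower by edgeR (10.2% higher, near the 8.62% of all genes), with 44 positive and a median log2 fold change of 0.45. At an unadjusted p under 0.05 there were 17 higher and 1 lower, against 18% and 15.5% of all genes. DESeq2 called 10 higher and 0 lower, against 10.6% and 8.95% of all genes. Ncapd2, of the condensin complex that compacts chromosomes, read 37.2, 33.0 and 35.4 CPM in the controls and 49.8, 52.7 and 49.2 CPM in the mutants (log2 fold change 0.52, SE 0.09, adjusted p = 0.0135). Smc4, its partner in condensin, had a log2 fold change of 0.69 (SE 0.13, adjusted p = 0.0171). Cdca2 had a log2 fold change of 1.29, Nuf2, of the kinetochore, 0.75, and Espl1, which encodes separase, 0.81. None of the 5 passed without control mouse 2, while of the 49 genes 1 passed without mutant mouse 2, 2 without control mouse 1, 3 without mutant mouse 1, 7 without mutant mouse 3 and 9 without control mouse 3.

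The 10 called genes lie on 8 chromosomes of the GRCm38 mouse genome. In GENCODE M21, the annotation whose summed exon lengths equal the deposited gene length for 41 of the 42 genes, Cdk2 (ENSMUSG00000025358) on chromosome 10 from 128697939 to 128705031, Bub1b (ENSMUSG00000040084) on chromosome 2 from 118598211 to 118641591, Tyms (ENSMUSG00000025747) on chromosome 5 from 30058202 to 30073617, Cdt1 (ENSMUSG00000006585) on chromosome 8 from 122568015 to 122573554 and Ccnb2 (ENSMUSG00000032218) on chromosome 9 from 70407692 to 70421547 are annotated as protein-coding genes. So are Cdc6 (ENSMUSG00000017499) on chromosome 11 from 98907801 to 98923940, Top2a (ENSMUSG00000020914) on chromosome 11 from 98992943 to 99024189, Birc5 (ENSMUSG00000017716) on chromosome 11 from 117849251 to 117855743, Uhrf1 (ENSMUSG00000001228) on chromosome 17 from 56303321 to 56323486 and Pola1 (ENSMUSG00000006678) on chromosome X from 93304767 to 93632155. Counts can be shared with other genes for 19 of the 42 genes, of which 8 match another gene over 200 bases or more with an identity of 95% or above, 2 have exons overlapped by a gene on the same strand and 11 by a gene on the other strand. Among the called genes, Cdc6 matches Gm9430 over 1528 bases, Uhrf1 matches Gm5648 over 1590 bases, and Tyms shares up to 361 bases with 18 other genes. Top2a is overlapped on the same strand by Gm23451 over 122 exonic bases, and Cdk2 on the other strand by Pmel over 34. Of the genes described without a call, Mcm7 matches Gm5487 over 2157 bases, Ccnb1 matches 4 copies over up to 1294 bases and Pcna matches Pcna-ps2 over 781 bases. How the authors assigned reads that fit more than 1 gene is not given in the sources used here, so these levels are uncertain to that extent.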

How the data were processed

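The authors sequenced RNA of P3 sciatic nerves, with 1 library for each of 3 controls and 3 Dok6 mutants, on an Illumina NovaSeq instrument. The NEBNext Ultra kit was used, named as the directional version in the methods and without that word in the labels. The authors deposited counts, the whole number of reads on each gene, not normalized, for 54532 genes, 23567 of them without a count. The submitters' processing notes name mm10. The aligner, the counting tool and the use of strand are not given in the sources used here. The table also holds a gene length, used for levels per kilobase.

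The genotypes were compared on these counts by edgeR 4.0.16 (R 4.3.3), using genes kept by filterByExpr (17099), with TMM scaling and 1 quasi-likelihood fit over all 6 libraries. Benjamini-Hochberg adjustment covered every gene in the fit, and an adjusted p under 0.05 was called. No value is adjusted over a list. The SE was derived from the F statistic, CPM are scaled by TMM, the SD stands beside means of 3 mice, and scores use log2 CPM with a prior count of 2. The typical biological coefficient of variation was 16.6%, and p-values measure the spread between these mice. No pair of libraries was a duplicate, the lowest chi-square per degree of freedom being 8.86. Floors cover counting error only, as no molecular identifiers are named. The procedures were tested on simulated data.

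The 42 genes, the other gene lists and the tests were chosen with earlier results of these data known. One Schwann cell marker is not reported here. Genes named with values are those called, the 4 highest of each group in CPM, the lowest of each group, Mki67, Top2a, Cdk1, Ccnb1, Pcna, Mcm2 and Dok6, called genes of the other lists, the D cyclins with their kinases, and the CDK inhibitors. Other members are given in brief, chosen after their values were seen.

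Alternatives were DESeq2 1.42.0, voom of limma 3.58.1, upper-quartile or RLE scaling, 10 counts or more in each library, no filter, fold change limits, the mouse number as a block and leaving out each mouse. Positions came from GENCODE M21, near-identical transcripts from BLAST 2.17.0, and promoters from RefSeq.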

Additional observations from a re-analysis of the deposited data

How the results depend on the processing

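The direction of both group medians was kept under every alternative run, at 0.32 to 0.58 for the replication genes and 0.43 to 0.75 for the mitosis genes when 1 mouse was left out. The mitosis median less the replication median was 0.05 to 0.21 in those fits. The counts of called genes did move. For the genes higher in the mutants, 20 were called by DESeq2, 16 without a filter, 4 with a log2 fold change above 1 and 0 with one above 2, and 0 to 16 when 1 mouse was left out. For the gene lower in the mutants, DESeq2 called 2, the fold change limits of 1 and 2 left 0, and 0 was called when any 1 mouse was left out. Over all genes, leaving out 1 mouse gave 56 to 1671 higher and 12 to 1233 lower. All 10 calls held with DESeq2, RLE scaling, upper-quartile scaling, no filter and at least 10 counts in every library, and limma voom kept 9, without Cdc6. Mcm7 turned to -0.03 without control mouse 2 and to -0.02 without control mouse 3, and was up to 0.15 when another mouse was left out. Cdkn1b turned to -0.02 without control mouse 3, and was up to 0.24 in the other such fits. Of 598 values for single named genes under these settings, 475 kept their direction and side of the threshold, 114 no longer passed, 6 passed only there and 3 changed sign. The cause of these changes was not tested, beyond the smaller number of mice in the fits that leave 1 out.

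With the mouse number as a block, 0 of the 42 genes were higher and 0 lower, and over all genes 432 were higher and 130 lower. With this block the median log2 fold change was 0.43 for the replication genes and 0.61 for the mitosis genes, against 0.44 and 0.60 without it. The paper describes the controls as littermates, but the labels do not say whether mice of the same number form pairs. The correlations of same-numbered deviations were -0.01, -0.17 and -0.24, and with 3 mice per genotype they cannot settle this. The cause of the missing calls was not tested.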
